A study of Schizosaccharomyces pombe with 12 samples.

Results

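Fission yeast (Schizosaccharomyces pombe) cells lacking the HIRA subunit gene slm9 or hip1 were compared with wild-type (WT) cells after a mild heat step followed by a severe oxidative stress. The comparison rests on 3 of the 12 arrays of the study, 1 each of slm9D, hip1D and WT, chosen as the samples whose titles name both the priming stress and the severe stress. The mutant group is the slm9D and hip1D arrays together (n = 2) and the WT group is 1 array. Cells had grown to log phase in YES medium at 32 °C, and a 1 h step at 40 °C was followed by 1 h in 25 mM H2O2. All 3 strains are h- and carry leu1-32 and ura4-D18. In addition slm9D has the allele slm9::ura4 and hip1D the allele hip1::ura4, while WT has no further one. Both mutants therefore carry the ura4 marker that WT lacks, and the marker and the deletions cannot be told apart in any difference from WT. The study has the same 3 strains in 3 other conditions, namely unstressed cells, 40 °C alone and H2O2 alone, with 1 array per strain and condition. The design text describes growth in quadruplicate and 1 aliquot of each strain for each of the 4 conditions. It does not settle whether the arrays of a strain came from separate cultures, so a p-value here reflects array-to-array spread, which may be technical.

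HIRA is a conserved histone chaperone complex that deposits histones on DNA outside of replication. In fission yeast Slm9 and Hip1 are subunits of the same complex, which is known for silencing of heterochromatin and for keeping core histone genes low outside S phase. Heat at 40 °C serves here as the priming stress, a mild stress that prepares cells for a later one, and 25 mM H2O2 is the severe stress. Oxidative and heat stress in this yeast activate the MAP kinase Sty1 and its transcription factor Atf1, which drive general stress genes such as the catalase gene ctt1.

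Levels are log2 intensities of Affymetrix probe sets, so a difference of 1 is 2-fold. Of 2917 probe sets with exactly 1 S. pombe gene, the 2914 left after setting slm9, hip1 and ura4 apart were compared. The probe set of slm9 read 5.18 in slm9D, 9.70 in hip1D and 9.95 in WT. That of hip1 read 9.78 in slm9D, 8.47 in hip1D and 9.83 in WT, so in its own deletion strain it was lower but far above background, and its place relative to the deletion was not tested. The marker ura4, a uracil synthesis gene, read 11.37 in slm9D, 11.47 in hip1D and 5.15 in WT. These values match the strain labels for slm9 and ura4, and for hip1 only in direction.

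The 2 mutants gave nearly the same profile. The median size of the difference between slm9D and hip1D was 0.06 and its 95th percentile 0.23, and 0 of 2914 probe sets lay 1 log2 unit or more apart. Against WT the median size of the difference was 0.23 and the 95th percentile 1.17, and both mutants lay on the same side of WT for 2641 probe sets (90.6%). Across genes, which are not independent replicates, the arrays correlated at 0.998 between slm9D and hip1D, 0.962 between slm9D and WT and 0.960 between hip1D and WT. The background level, the 95th percentile of named probe sets outside the S. pombe gene table, was 3.65 in slm9D, 3.62 in hip1D and 3.84 in WT. The 28S rRNA control read 13.05 in slm9D, 13.13 in hip1D and 13.40 in WT, and the 18S control 12.25 in slm9D, 12.17 in hip1D and 12.71 in WT, with the mutants below WT in both. The 3' minus 5' difference of the ACT1 control was 0.89 in slm9D, 0.80 in hip1D and 1.03 in WT, and that of RIP1 was 0.85 in slm9D, 1.01 in hip1D and 0.76 in WT. Of the 5 such controls 3 had both mutants below WT, among them SRB4 (0.01 in slm9D, -0.15 in hip1D and 0.14 in WT), RIP1 had both above, and TFIID had WT between the mutants. The part of these signs of RNA quality in the results was not tested.

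With limma's moderated test, 1724 of 2914 probe sets (59.2%) passed an adjusted p of 0.05, of which 860 were higher in the mutants (29.5%) and 864 lower (29.6%). All 1724 had both mutants on the same side of WT. Large differences were mostly increases, with 171 probe sets at least 2-fold higher (5.87%) and 14 at least 2-fold lower (0.48%), or 112 and 43 in a quantile normalization restricted to S. pombe probe sets. The spread in this test comes from the slm9D and hip1D pairs of the 4 conditions, and the lone WT array is assumed to vary as they do. A second fit let the WT arrays add to the spread by giving the other 3 conditions 1 shared mutant effect, and it called 652 probe sets (22.4%), 340 higher (11.7%) and 312 lower (10.7%). It counts real changes of the mutant effect between those conditions as spread, and its counts are given with those of each gene group, to be read against these shares. A permutation test of 2 arrays against 1 cannot go under p = 0.333, so no single gene can pass one.

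**Figure D1:**
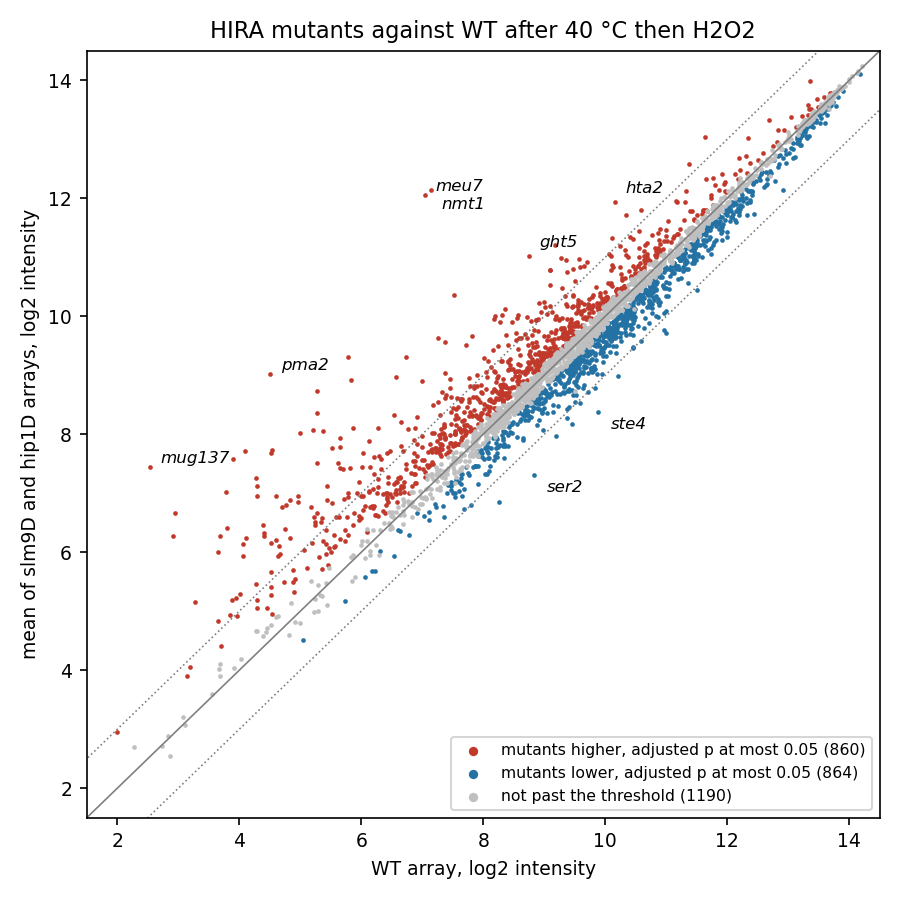
Log2 intensity of 2914 probe sets after 40 °C then H2O2, with the mean of the slm9D and hip1D arrays on the vertical axis and the WT array on the horizontal axis. The solid line marks equal levels and the dotted lines 2-fold differences, and the 171 probe sets at least 2-fold higher in the mutants outnumber the 14 at least 2-fold lower, most of all at low WT levels.

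Genes of meiosis and sporulation, which are normally silent in growing cells, held many of the largest increases in the mutants. The probe set of meu7, a meiotically upregulated gene for an alpha-amylase homolog, read 12.03 in slm9D and 12.08 in hip1D, against 7.04 in WT, a difference of 5.01 ± 0.07 (SE, adjusted p = 6.16e-17). Both mutants lay close together and far above WT. rec10, a component of the linear elements of meiotic chromosomes, read 9.22 and 9.39 in the mutants and 5.79 in WT (3.52 ± 0.10). The meiosis-specific activator gene of the anaphase-promoting complex mfr1 read 7.53 in slm9D and 7.64 in hip1D, against 3.90 in WT (3.68 ± 0.11), where it was barely above background. mei4, a forkhead transcription factor gene of the middle meiotic programme, read 6.32 and 6.34 in the mutants and 4.40 in WT (1.93 ± 0.16).

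Some of these genes had no WT signal above background. mug137 read 7.35 in slm9D, 7.53 in hip1D and 2.54 in WT, so it was at least 12.2-fold higher in the mutants when the background stands in for WT (adjusted p = 3.57e-13). By the same bound mug62 was at least 9.10-fold higher (6.94 and 7.11 in the mutants and 3.78 in WT) and fzr3, a further gene of the Fizzy family of anaphase-promoting complex activators, at least 5.44-fold higher (6.20 and 6.36 in the mutants and 2.91 in WT). In all, 15 probe sets were above the WT background level in the mutant mean and not in WT, of which 12 passed, and 0 the other way round. The mutants' lower background level moves with these differences, and its part in them was not tested.

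mfr1 and fzr3 stand outside the list of the group, which holds the other genes given here. Further members were meu27, at 8.64 in slm9D, 8.82 in hip1D and 5.27 in WT (3.46 ± 0.10), the Dbf4-related spo6, at 7.62 in slm9D, 7.85 in hip1D and 4.54 in WT (3.20 ± 0.11), and the sporulation septin gene spn6, at 8.11 and 8.12 in the mutants and 5.87 in WT (2.25 ± 0.09). isp3, which encodes a spore wall protein, read 9.29 and 9.34 in the mutants and 6.73 in WT (2.58 ± 0.09). Of 149 probe sets on the meiosis and sporulation list, 83 were higher (55.7%, beside 29.5% of all), 17 were lower (11.4%, beside 29.6%) and 49 did not pass, and the median difference was 0.42, beside -0.01 over all 2914. With WT arrays in the spread 44 were higher and 4 lower. Among the 17 lower were mug125 (-0.74 ± 0.09), mug151 (-0.73 ± 0.08) and rec14 (-0.51 ± 0.08). The excess of small increases depended on normalization. The quantile normalization restricted to S. pombe gave 56 higher and 39 lower with a median of 0.00, and over all probe sets 714 higher and 944 lower. The 15 largest increases kept their call and direction in it.

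Outside meiosis, single genes of metabolism and transport also showed large differences, as did the helicase gene tlh2 given further on. nmt1, a thiamine synthesis gene that thiamine represses, read 12.12 in slm9D and 12.16 in hip1D, against 7.15 in WT (4.99 ± 0.09, adjusted p = 1.49e-15). The other thiamine genes moved far less. thi2 was 0.70 ± 0.08 higher, bsu1, a vitamin B6 uptake gene, 0.66 ± 0.10 higher and thi4 0.38 ± 0.07 higher, while thi9, a thiamine transporter gene, was lower (-0.33 ± 0.08). The 9 probe sets of that list had 4 higher (44.4%, beside 29.5% of all) and 2 lower (22.2%, beside 29.6%). The same 4 increases passed with WT arrays in the spread.

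pma2, a plasma membrane proton pump gene of low expression in growing cells, read 9.02 in the mean of slm9D and hip1D, and 4.51 in WT (4.51 ± 0.09). Its paralog pma1, the main proton pump, went the other way at 11.91 in slm9D, 11.92 in hip1D and 12.32 in WT (-0.41 ± 0.04). cta3, a cation-transporting ATPase gene that responds to salt stress, read 7.77 and 7.59 in the mutants and 4.52 in WT (3.16 ± 0.14). The calcium and manganese pump gene pmr1 (-0.28 ± 0.07) and cta4 (-0.23 ± 0.07) were lower. Thus 2 of 5 P-type ATPases were higher (40%, beside 29.5% of all probe sets) and 3 lower (60%, beside 29.6%). pma2, cta3 and pma1 passed with WT arrays in the spread too. otg2, a galactosyltransferase gene, read 8.36 in both mutants and 5.28 in WT (3.08 ± 0.09).

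The decreases were smaller, and those of largest size included genes of pheromone signalling and mating. ste4, which encodes an adaptor of the mating MAP kinase cascade, read 8.34 in slm9D, 8.40 in hip1D and 9.88 in WT (-1.51 ± 0.10, adjusted p = 5.14e-09). byr1, the MAP kinase kinase of that cascade, read 9.74 and 9.78 in the mutants and 10.97 in WT (-1.21 ± 0.08). map1, a MADS-box regulator of P cell genes, read 6.77, 6.93 and 8.26 in slm9D, hip1D and WT (-1.41 ± 0.12). In contrast mam3, a cell surface agglutinin gene, was higher at 8.87 and 8.94 in the mutants and 6.99 in WT (1.92 ± 0.08), and so were the formin gene fus1 (1.66 ± 0.10) and gpa1, the pheromone G protein gene (1.48 ± 0.11). In limma with WT arrays in the spread mam3 passed (adjusted p = 0.0133) and fus1 did not (adjusted p = 0.204). The mating list of 29 probe sets thus had 17 higher (58.6%, beside 29.5% of all) and 10 lower (34.5%, beside 29.6%). With WT arrays in the spread 4 were higher and 3 lower, near the shares of all probe sets there (11.7% and 10.7%). The list's median of 0.32 became -0.12 in the quantile normalization restricted to S. pombe.

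All strains are h-, the M mating type, and the defining genes of both types were read as a check. The M-factor gene mfm2 read 8.81 in slm9D, 9.14 in hip1D and 10.21 in WT (-1.24 ± 0.13, and adjusted p = 0.0612 with WT arrays in the spread), and mam2, the M cell pheromone receptor gene, 8.17 and 8.46 in the mutants and 7.77 in WT. The P cell genes were not at background in any strain. map2, the P-factor gene, read 5.68 in slm9D, 5.75 in hip1D and 5.35 in WT, and map3, the P cell receptor gene, 7.22 and 7.19 in the mutants and 7.47 in WT. The 7 M cell probe sets divided into 4 higher and 3 lower, and the 2 P cell probe sets into 1 each. In the quantile normalization restricted to S. pombe, by contrast, 2 M cell probe sets were higher and 4 lower, and both P cell probe sets were lower. With WT arrays in the spread limma called 0 of either list, and 1 M cell probe set each way had an unadjusted p under 0.05.

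Decreases of other function were spread over many processes. ser2, a phosphoserine phosphatase gene of serine synthesis, read 7.32 in slm9D, 7.30 in hip1D and 8.83 in WT, the largest decrease of all that the rule named (-1.52 ± 0.08). hem13, a heme synthesis gene, read 9.67 and 9.77 in the mutants and 10.99 in WT (-1.27 ± 0.07), and pcl1, a vacuolar iron transporter gene, 8.79 in the mean of the mutants and 9.84 in WT (-1.05 ± 0.12). aph1, a diadenosine tetraphosphate hydrolase gene (-1.29 ± 0.10), the methyltransferase gene set13 (-1.22 ± 0.09), the nucleotidase gene tol1 (-1.07 ± 0.06), pnn1 (-1.05 ± 0.09) and gmh1 (-1.01 ± 0.11) followed. The TFIIH subunit gene tfb5 read 8.14 in slm9D, 8.43 in hip1D and 9.38 in WT, the prefoldin gene pfd3 9.58 in both mutants and 10.58 in WT, and the Mediator gene med31 9.45 in slm9D, 9.48 in hip1D and 10.45 in WT. All 14 probe sets at least 2-fold lower after 40 °C then H2O2 were also called lower in each of the other 3 conditions.

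Core histone genes were higher in the mutants, all 9 that were measured. hta2, an H2A gene, read 11.88 in slm9D and 12.00 in hip1D, against 10.16 in WT (1.78 ± 0.05, adjusted p = 5.93e-13). htb1, the H2B gene, read 13.03 and 13.06 in the mutants and 11.63 in WT (1.41 ± 0.04), and hhf2, an H4 gene, 12.52 and 12.65 in the mutants and 11.38 in WT (1.20 ± 0.05). Both mutants lay above WT for all 12 probe sets of the 9 core histone genes, as they did for 44.2% of all probe sets, and all 12 passed, beside 29.5% of all called higher. Their median difference was 0.55, and 7 of the 12 passed with WT arrays in the spread.

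The copies differed in size. For H2A, hta1 read 13.04 in slm9D, 13.00 in hip1D and 12.34 in WT (0.68 ± 0.04), less than the 1.78 of hta2. Among H3 genes hht2 was 0.64 ± 0.03 higher and hht3 0.41 ± 0.04 higher, and both probe sets of hht1 were at 0.43 ± 0.07 and 0.32 ± 0.08. Among H4 genes hhf2 stood at 1.20, the 2 probe sets of hhf3 at 0.59 ± 0.06 and 0.52 ± 0.05, and those of hhf1 at 0.22 ± 0.08 and 0.23 ± 0.09. The genes of H3 and of H4 encode near-identical proteins, so signal may be shared between copies and the values of single copies are uncertain. hhf1 was the least stable, and both of its probe sets lost the call without the slm9D array of the condition (0.12 and 0.15).

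The levels by condition show where the difference lay. The median log2 level of the 12 probe sets in unstressed cells was 12.62 in slm9D, 12.56 in hip1D and 12.68 in WT. At 40 °C it was 12.41 in slm9D, 12.46 in hip1D and 11.74 in WT, and after H2O2 alone 12.39 in slm9D, 12.40 in hip1D and 12.34 in WT. After 40 °C then H2O2 it was 12.44 in slm9D, 12.34 in hip1D and 11.75 in WT. By this median WT was thus well below the mutants in both conditions that included 40 °C, and close to them in the others. Single copies also differed after H2O2 alone, with htb1 (0.62) and hhf2 (0.53) higher in the mutants and the probe sets of hhf1 (-0.58 and -0.53) and hht1 (-0.39 each) lower. The difference of the mutants from WT after 40 °C then H2O2, less the mean of that difference in the other 3 conditions, was positive and called for 11 of 12 probe sets, beside 22.2% of all. In limma with WT arrays in the spread it was called for 0 of 12, beside 1.58% of all called positive. In that fit 4 of the 12 were positive at an unadjusted p under 0.05, beside 326 of all 2914. Against 40 °C alone hta2 was 0.37 further above WT (adjusted p = 0.00214) and htb1 0.33 (adjusted p = 0.00112), while the probe sets of hhf1 were less far above WT (by -0.60 and -0.56). There hht3 was 0.18 further above WT (adjusted p = 0.0363), and the other histone probe sets did not pass, from -0.19 for hhf2 to 0.09 for hht2. The direction of the 12 main differences held under every normalization tried, with medians from 0.54 to 0.65.

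**Figure D2:**
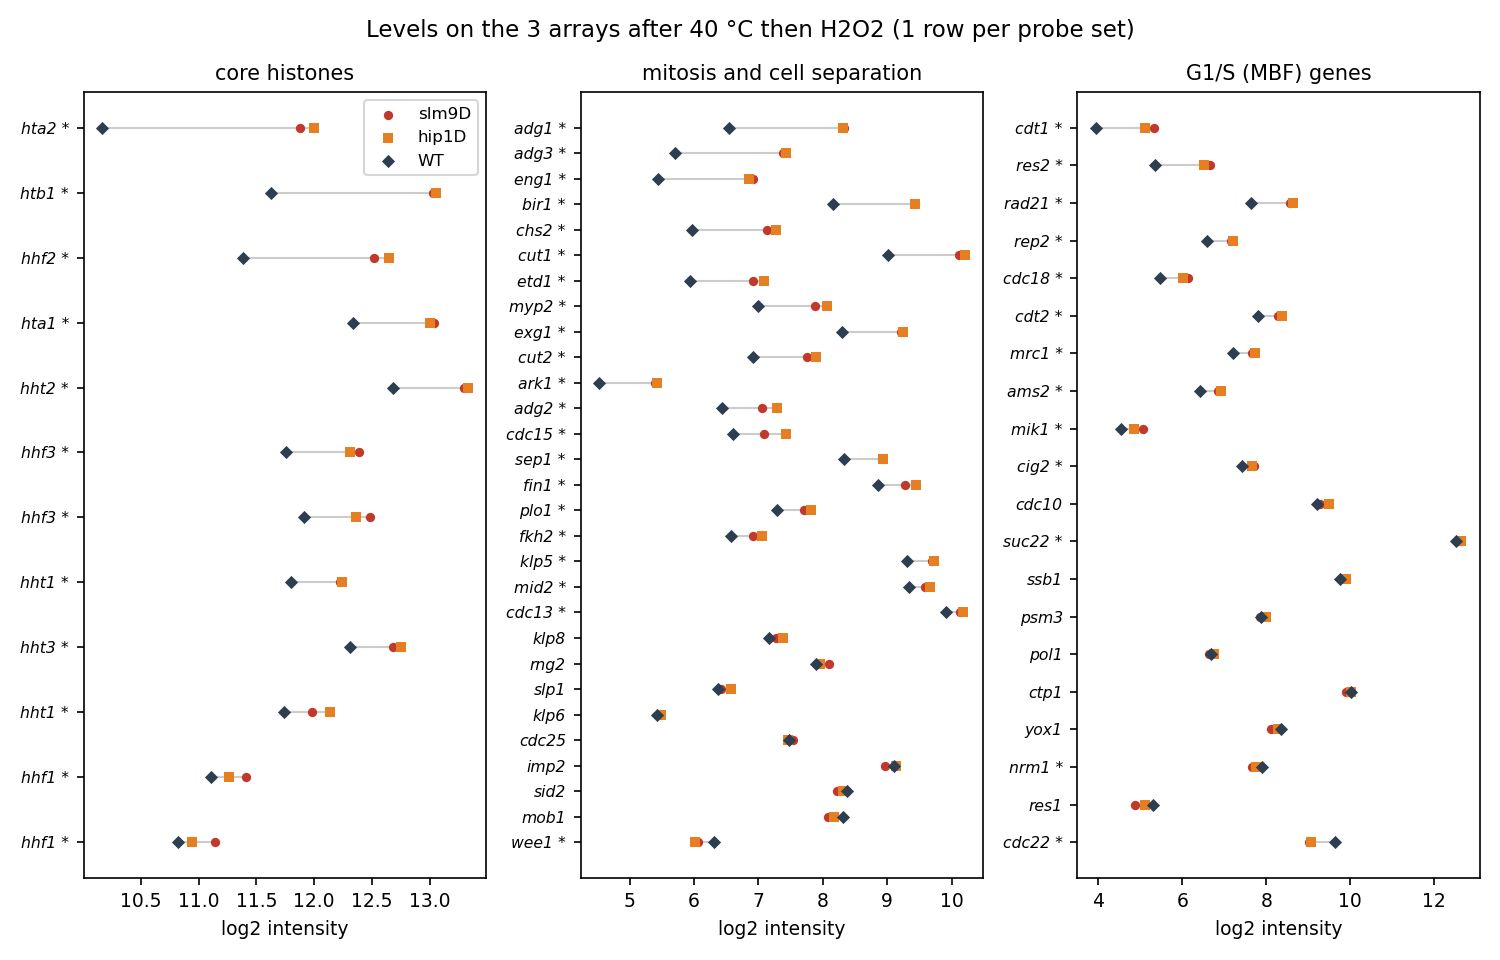
Log2 intensity on the slm9D, hip1D and WT arrays after 40 °C then H2O2, 1 row per probe set, for core histone genes, genes of mitosis and cell separation and genes of G1/S transcription. A star marks an adjusted p of at most 0.05, and the WT array is the lowest of the 3 in all 12 histone rows.

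Genes of mitosis and cell separation were also higher in the mutants. adg1, a cell surface glycoprotein gene expressed as daughter cells part, read 8.33 in slm9D and 8.32 in hip1D, against 6.54 in WT (1.78 ± 0.07, adjusted p = 1.61e-11). eng1, the endoglucanase that cuts the septum, read 6.91 and 6.86 in the mutants and 5.44 in WT (1.45 ± 0.09), and adg3 7.38 and 7.43 in the mutants and 5.70 in WT (1.71 ± 0.10). Genes of chromosome segregation lay on the same side. bir1, the survivin homolog, read 9.43 in both mutants and 8.16 in WT (1.27 ± 0.07), the separase gene cut1 10.11 and 10.20 in the mutants and 9.01 in WT (1.15 ± 0.07), the securin gene cut2 7.75 and 7.90 in the mutants and 6.92 in WT (0.90 ± 0.09) and the Aurora kinase gene ark1 5.39 and 5.43 in the mutants and 4.52 in WT (0.89 ± 0.12).

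Of the 29 probe sets on this list 20 were higher (69%, beside 29.5% of all) and 1 was lower, wee1, the kinase that delays mitosis (-0.27 ± 0.11), with a median of 0.51. With WT arrays in the spread 12 passed, all of them higher, and in the quantile normalization restricted to S. pombe 16 were higher and 5 lower with a median of 0.28. The mitotic cyclin gene cdc13 was only 0.24 ± 0.08 higher, the Polo kinase gene plo1 0.47 ± 0.08 higher, and cdc25, the mitotic phosphatase gene, did not pass. In levels, the median of the list was 7.75 in slm9D, 7.90 in hip1D and 7.16 in WT after 40 °C then H2O2. In unstressed cells it was 9.10 in slm9D and 9.14 in both hip1D and WT, at 40 °C 8.28 in slm9D, 8.26 in hip1D and 8.11 in WT, and after H2O2 alone 8.16 in slm9D, 8.07 in hip1D and 8.22 in WT, so all 3 strains had their lowest medians after the combined stress and WT the lowest of all. The difference from the other 3 conditions was called for 15 of 29 probe sets (51.7%, beside 22.2% of all called positive), each of them positive, and 4 passed with WT arrays in the spread. These were ark1 (1.34 ± 0.14), etd1, a regulator of septum formation (1.45 ± 0.12), the glucanase gene exg1 (0.88 ± 0.08) and cut2 (0.79 ± 0.11).

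Genes of the G1/S transition, most of them targets of the transcription factor MBF, followed in part. cdt1, a replication licensing gene, read 5.33 in slm9D and 5.11 in hip1D, against 3.94 in WT (1.28 ± 0.13), where it was near background. The cohesin gene rad21 read 8.56 and 8.64 in the mutants and 7.64 in WT (0.95 ± 0.08), the second licensing gene cdc18 6.14 and 6.02 in the mutants and 5.48 in WT (0.60 ± 0.09), and the MBF activator gene rep2 7.17 and 7.21 in the mutants and 6.59 in WT (0.60 ± 0.08). In the other direction cdc22, the large subunit of ribonucleotide reductase, was lower (-0.59 ± 0.07), as was nrm1, a corepressor of MBF (-0.20 ± 0.08). Of 20 probe sets 11 were higher (55%, beside 29.5% of all) and 2 lower (10%, beside 29.6%), and the 5 that passed with WT arrays in the spread were higher. The median of 0.23 became -0.01 in the quantile normalization restricted to S. pombe, with 5 higher and 7 lower. The difference from the other conditions was positive for 11 (55%, beside 22.2% of all) and negative for 1, and cdt1 (1.68 ± 0.15), rep2 (1.18 ± 0.10) and cdc18 (0.87 ± 0.10) passed it in both fits. In a mixed culture a lower level per cell and a smaller share of cells in a cell cycle phase cannot be told apart.

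Genes of histone variants and histone chaperones went both ways. On their list 5 of 18 were higher (27.8%, beside 29.5% of all) and 9 lower (50%, beside 29.6%), with a median of -0.23. pht1, which encodes the variant H2A.Z, read 9.73 in slm9D, 9.81 in hip1D and 9.20 in WT (0.57 ± 0.07), and ams2, a GATA factor that activates core histone genes, 6.86 and 6.93 in the mutants and 6.43 in WT (0.47 ± 0.10, and adjusted p = 0.0998 with WT arrays in the spread). Of the other HIRA subunits, hip3 was 0.35 ± 0.07 higher and hip4 0.31 ± 0.08 higher. scm3, which encodes the chaperone of the centromeric H3 variant, had the largest increase of the list, at 6.91 in slm9D, 6.65 in hip1D and 6.06 in WT (0.72 ± 0.11, and adjusted p = 0.0569 with WT arrays in the spread). Lower were several chaperone genes of other complexes, among them the CAF-1 subunit gene pcf1 (-0.46 ± 0.07), the FACT subunit gene spt16 (-0.42 ± 0.07), rtt106 (-0.43 ± 0.08), nap1 (-0.36 ± 0.07), spt6 (-0.32 ± 0.07) and asf1 (-0.28 ± 0.12). In the fit with WT arrays in the spread pht1 passed as higher, and pcf1, spt6 and the H2A.Z chaperone gene chz1 (-0.51 ± 0.08) lower.

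Heterochromatin and RNAi genes were mostly higher, with 18 of 26 higher (69.2%, beside 29.5% of all), 2 lower (7.69%, beside 29.6%) and a median of 0.29. rik1, a subunit of the H3K9 methyltransferase complex, read 9.98 in slm9D, 10.07 in hip1D and 8.30 in WT (1.72 ± 0.08), and chp2, an HP1 protein gene, 8.16 and 8.06 in the mutants and 6.27 in WT (1.85 ± 0.09). clr1, a subunit of the silencing complex SHREC, was 1.06 ± 0.08 higher and the Dicer gene dcr1 1.26 ± 0.11 higher, while clr4, the methyltransferase itself, was 0.58 ± 0.10 higher and the HP1 gene swi6 0.27 ± 0.08. The histone deacetylase gene sir2 was lower (-0.40 ± 0.09). Only rik1, clr1 and hrr1 passed in limma with WT arrays in the spread, all of them higher, while chp2 (adjusted p = 0.0868) and dcr1 (adjusted p = 0.117) did not. These 3 of 26 were near the 11.7% of all probe sets called higher in that fit. At an unadjusted p under 0.05 in that limma fit, 10 of the 26 were higher and 0 lower, beside 540 and 543 of all 2914. The excess of the list thus passed the adjusted threshold in the first fit alone. The difference of this list from the other conditions was positive for 5 (19.2%, beside 22.2% of all) and negative for 9 probe sets (34.6%, beside 22.4%). In the quantile normalization restricted to S. pombe 14 were higher and 5 lower.

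General stress genes went both ways. Of 31, 13 were higher (41.9%, beside 29.5% of all) and 7 lower (22.6%, beside 29.6%). Together 64.5% were called, beside 59.2% of all probe sets. Their differences ran from -0.78 to 3.16 with a median of 0.03, beside -0.01 over all. The catalase gene ctt1 read 13.16 in slm9D, 13.12 in hip1D and 13.15 in WT (-0.01 ± 0.05), the small heat shock protein gene hsp16 14.17 and 14.13 in the mutants and 14.15 in WT (0.00 ± 0.03) and the glutathione peroxidase gene gpx1 13.41 and 13.40 in the mutants and 13.39 in WT (0.02 ± 0.03). None of these differed detectably from WT, and all were near the top of the intensity range. In H2O2 alone the same genes stood 1.15 (ctt1), 0.78 (hsp16) and 0.70 (gpx1) above WT in the mutants. The median level of the list was 12.08 in slm9D, 11.92 in hip1D and 12.12 in WT after 40 °C then H2O2, and after H2O2 alone 11.54 in slm9D, 11.40 in hip1D and 10.12 in WT.

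Of the members that passed, those lower in the mutants included tms1, a sugar alcohol dehydrogenase homolog gene, at 12.17, 12.12 and 12.92 in slm9D, hip1D and WT (-0.78 ± 0.07), aif1 (-0.57 ± 0.06), tps1, the trehalose phosphate synthase gene (-0.40 ± 0.05), and dak1, a dihydroxyacetone kinase gene (-0.39 ± 0.04). None of these 4 passed with WT arrays in the spread (adjusted p = 0.493, 0.143, 0.307 and 0.09). Higher were hri1, an eIF2 alpha kinase gene, at 9.64 in both mutants and 8.59 in WT (1.05 ± 0.08), gld1, a glycerol dehydrogenase gene, at 11.30 and 11.32 in the mutants and 10.45 in WT (0.86 ± 0.08), and pmk1, a cell integrity MAP kinase gene, at 9.53 and 9.56 in the mutants and 8.80 in WT (0.74 ± 0.08). These 3 and the list members cta3 and isp3 passed with WT arrays in the spread.

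The MAP kinase gene sty1 itself was lower, at 9.90 in slm9D, 9.89 in hip1D and 10.71 in WT (-0.82 ± 0.07), and win1, a kinase gene upstream of it, higher at 10.14 and 10.21 in the mutants and 9.10 in WT (1.07 ± 0.07). Both passed in both fits. sty1 was lower to a like extent in unstressed cells (-0.74), at 40 °C (-0.81) and after H2O2 alone (-0.58). Of the 21 genes of that pathway 9 were higher (42.9%, beside 29.5% of all probe sets) and 4 lower (19%, beside 29.6%), with a median of 0.09. With WT arrays in the spread 2 were higher and 1 lower. The gene atf1 did not pass (0.05 ± 0.09).

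Of 27 peroxide and thiol genes 8 were higher (29.6%, beside 29.5% of all probe sets) and 4 lower (14.8%, beside 29.6%), so the share of increases was that of all. The median was -0.00, and 4 were higher and 2 lower with WT arrays in the spread. grx3, a glutaredoxin gene, read 9.86 in slm9D and 10.02 in hip1D, against 8.87 in WT (1.07 ± 0.08), and obr1, a Pap1 target gene, 13.99 and 13.96 in the mutants and 13.36 in WT (0.61 ± 0.03). The copper and zinc superoxide dismutase gene sod1 was 0.25 ± 0.03 higher while ccs1, the copper chaperone for that enzyme, was lower (-0.36 ± 0.05). The glutaredoxin gene grx5 was lower too (-0.43 ± 0.07). Peroxiredoxin tpx1 (0.07 ± 0.03), sulfiredoxin srx1 (0.12 ± 0.09), thioredoxin trx1 (0.07 ± 0.03) and thioredoxin reductase trr1 (-0.11 ± 0.05) lay close to WT, and of these only tpx1 passed. Among 17 heat shock and chaperone genes 4 were higher, led by cdc37 (0.36 ± 0.06) and the Hsp70 gene ssa1 (0.31 ± 0.03), and 4 lower, led by bip1 of the endoplasmic reticulum (-0.38 ± 0.05). Either count was 23.5% of the list, below the 29.5% higher and 29.6% lower of all probe sets. Only bip1 passed with WT arrays in the spread.

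**Figure D3:**
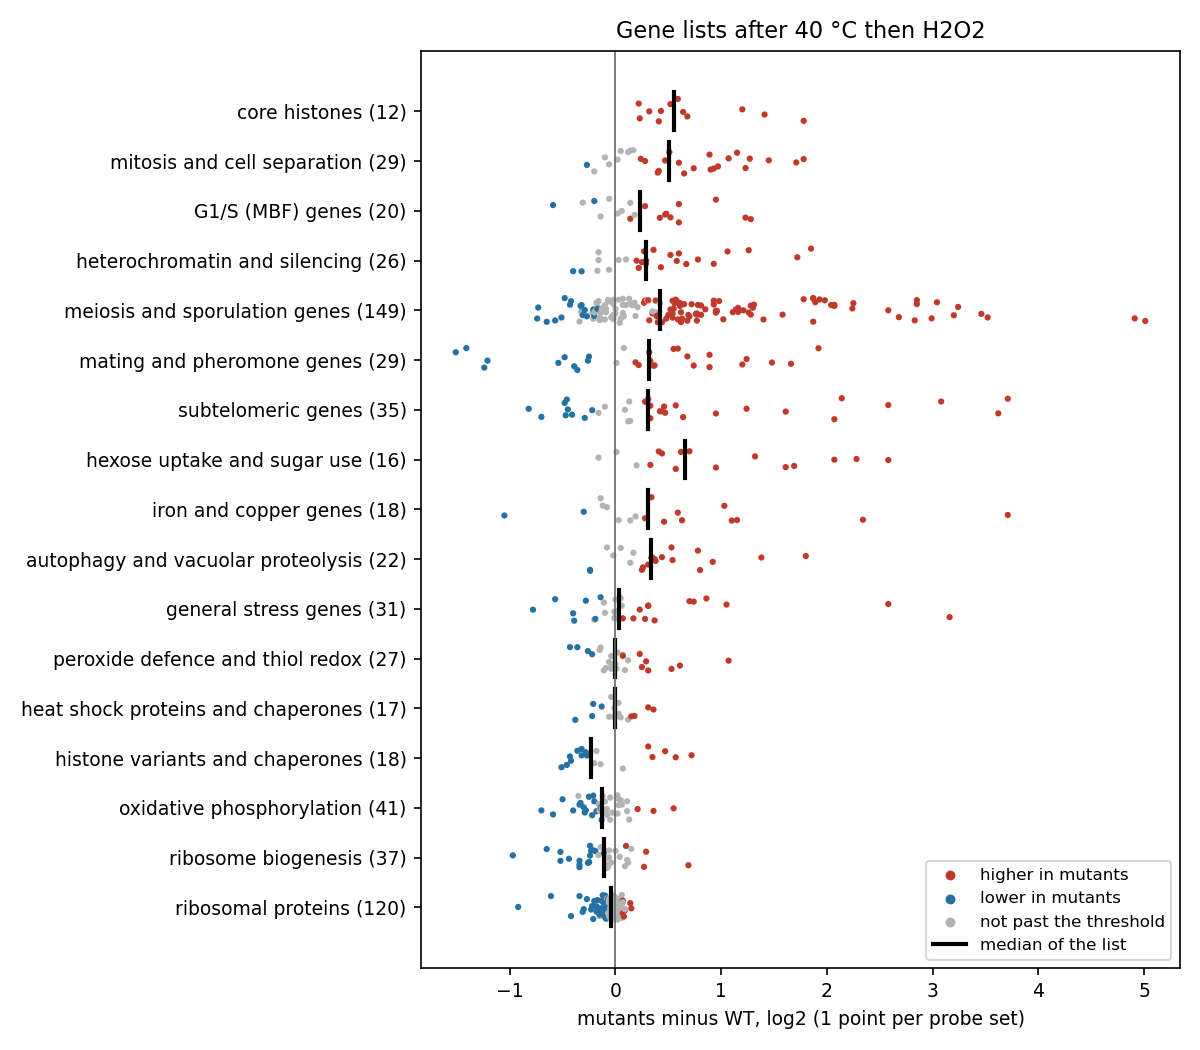
Difference of the mutants from WT after 40 °C then H2O2 (log2) for the probe sets of 17 gene lists, with the number of probe sets in brackets. Black bars are medians, which lie at 0.55 for core histones and 0.66 for hexose genes and near 0 for general stress, peroxide and heat shock genes, while ribosomal protein genes cluster tightly at -0.04.

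Genes of hexose uptake and sugar use were higher in the mutants. ght5, a high-affinity glucose transporter gene, read 11.01 in slm9D and 11.06 in hip1D, against 8.75 in WT (2.28 ± 0.07, adjusted p = 4.47e-13). ght6 was at least 5.42-fold higher, at 6.18 and 6.37 in the mutants and 3.69 in WT, which is below background. ght7 (2.07 ± 0.16), ght1 (1.69 ± 0.13) and ght3 (1.61 ± 0.11) were higher as well, and the maltase gene mal1 read 9.67 and 9.70 in the mutants and 8.37 in WT (1.32 ± 0.07). Of 16 probe sets 13 were called, all of them higher (81.2%, beside 29.5% of all), with a median of 0.66, and 7 passed with WT arrays in the spread. The median differed little in other normalizations (0.65 to 0.71).

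Iron and copper genes had 10 of 18 higher (55.6%, beside 29.5% of all) and 2 lower (11.1%, beside 29.6%), with a median of 0.31. str3, a transporter gene of the siderophore-iron family, was at least 7.08-fold higher, at 6.62 in slm9D, 6.71 in hip1D and 2.95 in WT. The iron permease gene fip1 read 6.97 and 6.92 in the mutants and 4.61 in WT (2.34 ± 0.10), its partner ferroxidase gene fio1 7.37 and 7.46 in the mutants and 6.32 in WT, and the ferric reductase gene frp1 7.82 and 7.78 in the mutants and 6.65 in WT (1.15 ± 0.10). pcl1 was lower, as given above. In the fit with WT arrays in the spread 6 were higher, and pcl1 was lower.

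Among nitrogen genes the ammonium transporter gene amt3 read 9.09 in slm9D, 8.86 in hip1D and 6.57 in WT (2.41 ± 0.10), amt1 was 0.83 ± 0.11 higher and amt2 lower (-0.54 ± 0.07). isp7, an oxygenase gene of amino acid uptake control, was 1.38 ± 0.09 higher and isp4, an oligopeptide transporter gene, 0.88 ± 0.09 higher. The amino acid synthesis genes lys1 (-0.59 ± 0.08), lys2 (-0.37 ± 0.06) and arg3 (-0.39 ± 0.07) were lower, as was ser2, so that 6 of 21 were higher and 7 lower, or 4 and 4 with WT arrays in the spread. The 6 and 7 were 28.6% and 33.3% of the list, near the 29.5% and 29.6% of all probe sets. Autophagy and vacuolar protease genes had 15 of 22 higher (68.2%, beside 29.5% of all) and 2 lower (9.09%, beside 29.6%), with a median of 0.34. atg11, a scaffold of selective autophagy, read 10.03 and 9.96 in the mutants and 8.20 in WT (1.80 ± 0.08), atg20 was 1.38 ± 0.13 higher and the kinase gene atg1 0.92 ± 0.08, and 5 members passed with WT arrays in the spread.

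Near chromosome ends 20 of 35 probe sets were higher (57.1%, beside 29.5% of all) and 9 lower (25.7%, beside 29.6%), with a median of 0.31 (11 and 2 with WT arrays in the spread). The list is the 40 protein-coding genes nearest each end of chromosomes I and II. Only 32 of these 160 genes had a probe set of their own. Besides str3, isp3, ght3 and ght7, the helicase gene tlh2 was higher, but its probe sets disagreed. A pair of them read 7.51 in slm9D, 7.92 in hip1D and 4.10 in WT (3.62 ± 0.20) and 8.80 and 9.03 in the mutants and 5.84 in WT (3.08 ± 0.18), while the other two were 1.24 ± 0.11 and 0.95 ± 0.30 above WT, the last of them below background on all 3 arrays. tlh2 has near-identical copies at other chromosome ends, so this signal cannot be assigned to 1 copy. The antiporter gene nhe1 (-0.82 ± 0.10) and uap1 (-0.70 ± 0.08) were the lowest of the list.

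Ribosomal protein genes moved little, and the direction of their calls depended on the scaling. Of 120 probe sets 6 were higher (5%, beside 29.5% of all) and 44 lower (36.7%, beside 29.6%), with a median of -0.04. The 16 that passed with WT arrays in the spread were lower. In the quantile normalization restricted to S. pombe 17 were higher and 26 lower, and with arrays set to equal medians outside S. pombe 25 were higher and 18 lower. The largest decrease was that of rpl1603, at 10.12 in slm9D, 9.98 in hip1D and 10.97 in WT (-0.92 ± 0.09). Among 37 ribosome biogenesis genes 17 were lower (45.9%, beside 29.6% of all), led by rrp41 of the exosome (-0.97 ± 0.08) and nop16 (-0.65 ± 0.09). Another 4 were higher (10.8%, beside 29.5%), led by utp5 (0.69 ± 0.07). With WT arrays in the spread 8 of the list were lower and 1 higher. Of 41 nuclear genes of oxidative phosphorylation 16 were lower (39%, beside 29.6% of all) and 3 higher (7.32%, beside 29.5%), with a median of -0.13. With WT arrays in the spread 5 were lower and 2 higher, beside 10.7% and 11.7% of all. sdh1, of succinate dehydrogenase, read 11.69, 11.80 and 12.44 in slm9D, hip1D and WT (-0.70 ± 0.07), and the complex III gene qcr6 11.16 and 11.13 in the mutants and 11.73 in WT (-0.59 ± 0.06). In the other conditions the median of that list lay lower, at -0.33 unstressed, -0.16 at 40 °C and -0.38 after H2O2 alone.

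The 4 conditions share no array, but their tests use 1 spread per probe set and their aliquots may share a culture, so the overlaps of their calls are descriptions. Of the 860 probe sets higher after 40 °C then H2O2, 377 (43.8%) were also called higher in all other 3 conditions, 193 in exactly 2, 153 in 1 and 137 in none. Of the 864 lower, 382 (44.2%) were called lower in all other 3 and 114 in none, where the shares called lower over all probe sets were 34.6% unstressed, 34.1% at 40 °C and 37.2% after H2O2 alone. The shares called higher over all probe sets were 26% unstressed, 29.3% at 40 °C and 38% after H2O2 alone. Of the 171 at least 2-fold higher, 132 were called higher in all other 3 conditions and 4 in none. Of opposite sign, 177 of the 860 were called lower in at least 1 other condition. The matching shares over all probe sets, called in all other 3 conditions, in none or with opposite sign, are not given. These overlaps therefore have no base here to be read against. Against the mean of the other 3, 1301 probe sets (44.6%) differed, 647 positive (22.2%) and 654 negative (22.4%), but only 64 (2.2%) did so with WT arrays in the spread, 46 positive (1.58%) and 18 negative (0.618%).

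Among the genes further above WT after the combined stress than elsewhere were ibp1 and pof4. ibp1, a Cdc25-like phosphatase gene, turned round. It was lower in the mutants unstressed (-1.14), at 40 °C (-0.79) and after H2O2 (-0.86), and higher after 40 °C then H2O2 at 6.93 and 7.08 in the mutants and 5.78 in WT (1.23 ± 0.09), a departure of 2.16 ± 0.11 (adjusted p = 0.00136 with WT arrays in the spread). pof4, an F-box protein gene, read 5.89 in slm9D, 6.13 in hip1D and 3.65 in WT, which is below background, so it was at least 4.51-fold higher, while its difference was -0.17 unstressed, -0.05 at 40 °C and 0.65 after H2O2 alone. With the background in place of WT its departure was at least 2.03, so the order of the 2 genes is not known.

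spo12, whose budding yeast homolog regulates mitotic exit, read 6.73 in slm9D, 6.98 in hip1D and 4.96 in WT, a difference of 1.89 ± 0.10 against -0.16, 0.55 and -0.39 in unstressed, 40 °C and H2O2 cells. The corresponding differences of cdt1 were 1.28 against -0.14, -0.42 and -0.62, those of meu23 were 0.95 against -0.86, -0.33 and -1.07, and those of adg1 were 1.78 against -0.46, 0.91 and -0.77. For these genes the WT level was the lowest of its 4 conditions. cdt1, for instance, read 8.63 in slm9D, 8.75 in hip1D and 8.83 in WT unstressed, 6.52 in slm9D, 6.48 in hip1D and 6.92 in WT at 40 °C, and 7.45 in slm9D, 7.16 in hip1D and 7.92 in WT after H2O2 alone. spo12, cdt1 and meu23 passed in both fits, while adg1 (adjusted p = 0.0868) and fip1 (0.119) did not pass with WT arrays in the spread. The departure of str3 was not measured, since its WT level was below background here and at 40 °C. In the quantile normalization restricted to S. pombe the differences from WT of meu23 (0.18) and cdt1 (0.37) no longer passed.

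**Figure D4:**
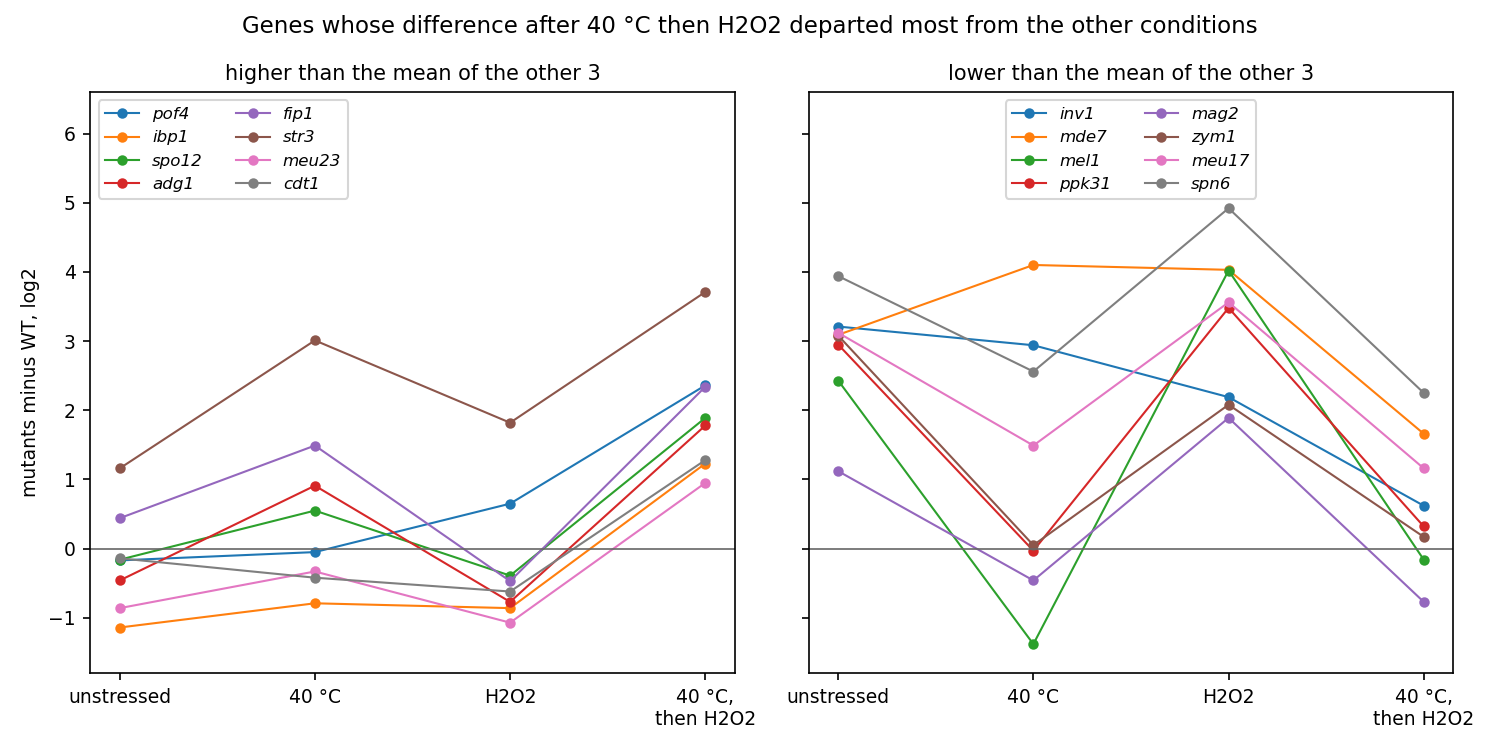
Difference of the mutants from WT (log2) in the 4 conditions, in the order unstressed, 40 °C, H2O2 alone and 40 °C then H2O2, for the 8 genes with the largest positive and the 8 with the largest negative departure of the last condition from the mean of the others. In the left panel ibp1, cdt1 and meu23 pass from below 0 in the other 3 conditions to above 0, and in the right panel mel1, ppk31 and zym1 end near 0. WT levels below background are plotted as measured, those of pof4 (last condition), str3 (40 °C and last condition) and spn6 (H2O2 alone).

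Negative departures were led by inv1 and mde7. inv1, the invertase gene, read 10.31 in slm9D, 10.17 in hip1D and 9.61 in WT (0.62 ± 0.11), against differences of 3.21 unstressed, 2.94 at 40 °C and 2.19 after H2O2 alone. Its WT level was 5.32, 5.97 and 7.82 in those conditions. mel1, the alpha-galactosidase gene, read 10.93 in the mean of the mutants and 11.10 in WT and did not differ detectably (-0.16 ± 0.09, adjusted p = 0.146), against 2.43, -1.38 and 4.02. The metallothionein gene zym1 read 13.53 and 13.48 in the mutants and 13.34 in WT (0.17 ± 0.07), against 3.08, 0.05 and 2.08, and the kinase gene ppk31 8.72 and 8.83 in the mutants and 8.46 in WT (0.32 ± 0.08), against 2.95, -0.03 and 3.48, so both were nearest to WT at 40 °C alone. inv1 and mel1 stand on the hexose and sugar list, which had 6 positive and 6 negative departures of 16 (37.5% each way, beside 22.2% and 22.4% of all).

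mde7, an RNA-binding protein gene, stayed well above WT at 8.82 in slm9D, 9.27 in hip1D and 7.38 in WT (1.66 ± 0.14), though less than elsewhere (3.09, 4.10 and 4.03), and the same held for meu17 (1.16 ± 0.09). spn6 also has a negative departure, which was not measured exactly because its WT level after H2O2 alone was below background. mag2, a DNA glycosylase gene, read 8.32 in slm9D, 9.13 in hip1D and 9.50 in WT, and with its mutants far apart it did not pass against WT (-0.77 ± 0.40, adjusted p = 0.115). Without the hip1D array the value was -1.18 (adjusted p = 0.0305), and without the slm9D array -0.37 (adjusted p = 0.489). The departure from the other conditions passed in both fits for inv1 (-2.15 ± 0.13, adjusted p = 0.02 with WT arrays in the spread) and mde7 (-2.08 ± 0.16, adjusted p = 0.029), and in the first fit alone for mel1 (-1.85 ± 0.11), ppk31 (-1.81 ± 0.10), zym1 (-1.57 ± 0.08), meu17 (-1.56 ± 0.11) and mag2 (-1.62 ± 0.47). That of mag2 no longer passed without the slm9D array (-1.22, adjusted p = 0.0521). By list, general stress genes had 8 positive and 21 negative of 31 and heat shock genes 0 positive and 9 negative of 17, beside 22.4% of all probe sets negative. In limma with WT arrays in the spread 0 were negative in either list. At an unadjusted p under 0.05 in that fit 4 and 1 were negative, beside 252 of all 2914.

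**Figure D5:**
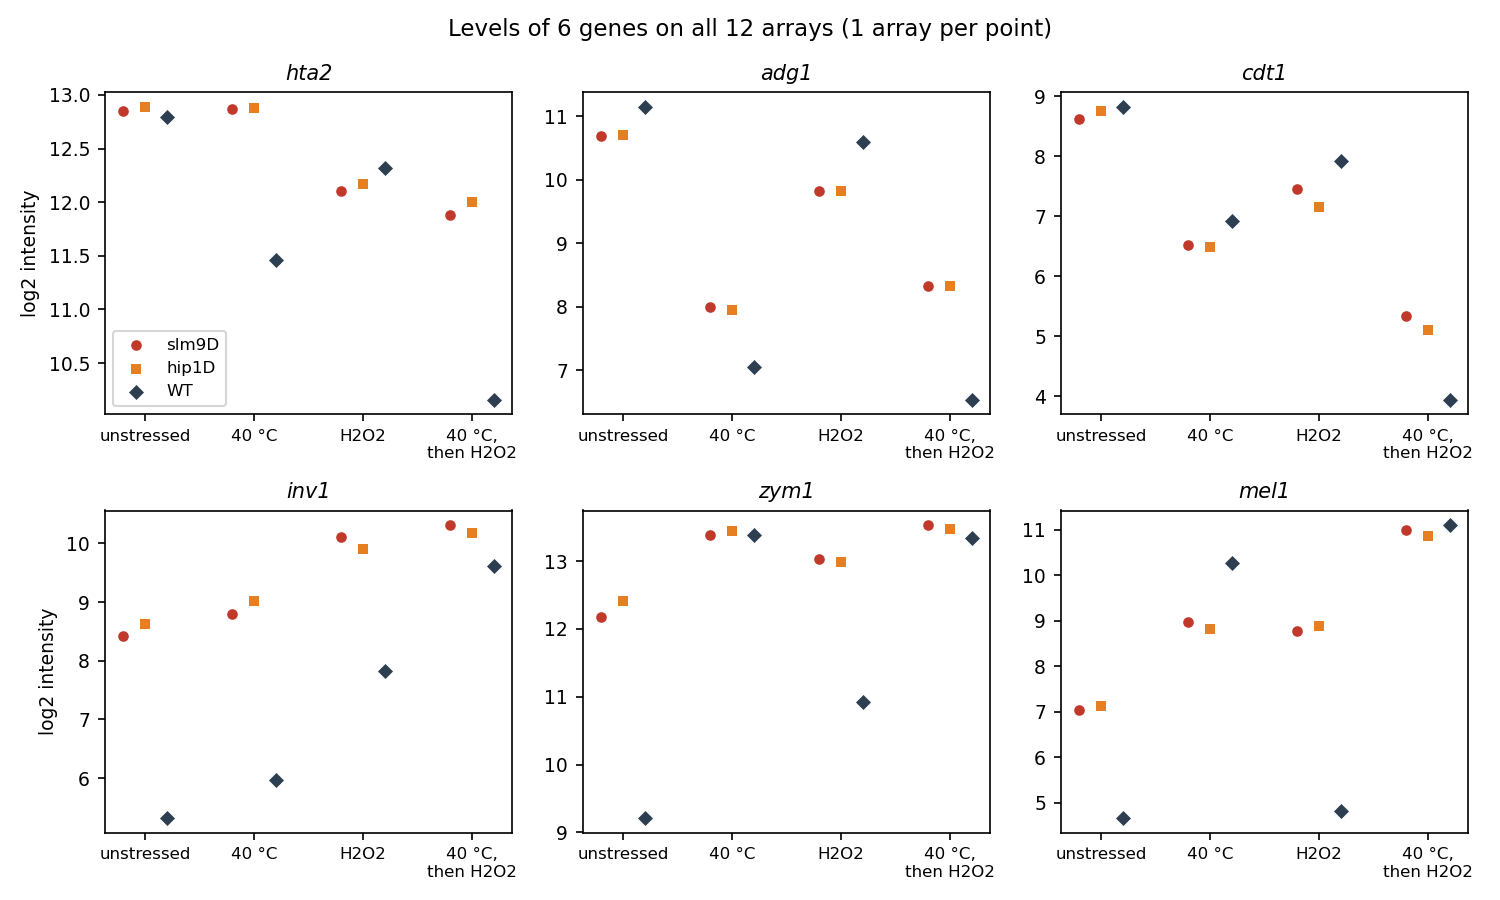
Log2 intensity on each of the 12 arrays for 6 genes, with slm9D, hip1D and WT side by side in each condition. The WT array is lowest after 40 °C then H2O2 for hta2, adg1 and cdt1, whereas for inv1, zym1 and mel1 the 3 strains are closer together there than in unstressed cells, where WT is far lower.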

How the data were processed

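Each deposited value is a probe set's intensity. Per the submitters' processing notes, the authors ran RMA in Expression Console 1.1 of Affymetrix. RMA corrects background, gives all arrays 1 distribution and summarises the probes of a set, which hides shifts in total RNA and shrinks differences between low signals. The table held linear intensities from 2.88 to 20293.1, and log2 was taken with no further normalization, although the design had assumed log2 values. Genes were named through the platform annotation matched to RefSeq's S. pombe gene table, 2914 probe sets by ID and 3 by symbol, giving 2917 with exactly 1 gene (2899 genes). Another 20 shared by several genes were left out. The 14 genes with several probe sets were tested per probe set. No sequences or coordinates are given, since the array's build is not given in the sources used here, and promoters were not analysed here.

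Tests used limma 3.58.1 in R 4.3.3 with 8 means (mutants and WT in 4 conditions), 4 residual degrees of freedom, a prior variance that follows the mean level (eBayes), and p-values adjusted by Benjamini-Hochberg across all 2917. No low-value filter was applied. Calls are those with an adjusted p below 0.05. Where WT was not above background, folds are lower bounds with the background in place of WT. The number of arrays limits the precision. Named genes are slm9, hip1 and ura4, the called probe sets of largest increase (up to 15) and of largest decrease (up to 15), up to 8 each way between conditions, up to 4 of each list by p, and all core histones. Further list members were named after their values were seen. Members and the 30 lists were chosen with earlier results of these data known. The lists were matched by symbol, then by synonym, and 3 listed names that are synonyms of unrelated genes were dropped after the data were seen. On simulated data (2917 probe sets, 200 changed) the main comparison recovered 96% of 1.5-fold and 99% of 2-fold changes with 7.58% of calls false. With WT arrays in the spread it recovered 94% and 99% with 8.1% false. The simulated noise of every array, WT included, had the spread of the slm9D and hip1D pairs. Only those 200 differed between strains, in 1 condition. These rates therefore cannot show whether WT varies as the mutants do, nor the false share among the calls in the real data. Alternatives were 3 normalizations, a pseudocount of 16, a filter on dim probe sets, 4 other models and leaving out either mutant array.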

Additional observations from a re-analysis of the deposited data

Results flagged for a closer look

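Among the probe sets named by the rule, 11 genes had a difference of the mutants from WT after 40 °C then H2O2 that departed from its mean over the other 3 conditions at an adjusted p under 0.05 in both limma fits, with and without WT arrays in the spread. The departure, in log2 units, was positive for 9 of them, namely ibp1 (2.16), pof4 (at least 2.03, since its WT level was below background), spo12 (1.89), meu23 (1.71), cdt1 (1.68), isp7 (1.04), grx3 (0.90), pht1 (0.78) and sod1 (0.36). It was negative for inv1 (-2.15) and mde7 (-2.08). Each value rests on 1 WT array per condition.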

How the results depend on the processing

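Letting the WT arrays add to the spread lowered the number of calls most. Calls numbered 652 in place of 1724, 340 higher and 312 lower in place of 860 and 864, and the differences between conditions 64 in place of 1301. Of 146 named probe sets, 104 stayed on their side of the threshold in that fit and 42 lost the call. The quantile normalization restricted to S. pombe moved the 2-fold counts most. It gave 112 probe sets at least 2-fold higher and 43 at least 2-fold lower, in place of 171 and 14, and 6 named probe sets lost their call. There map2 (-0.64) and 1 probe set of mfm3 (-0.43) became lower in the mutants. The share of calls that were higher was 49.9% as reported, 43.1% after that normalization and 59.8% after shifting arrays to equal medians outside S. pombe. The cause was not tested. Under every other alternative 142 to 146 of the named probe sets stayed on their side of the threshold with their direction. Without 1 mutant array the calls numbered 1543 to 1590, and the lone WT array could not be left out. The fit on the 3 arrays alone gives no difference between conditions. The labels give no replicate numbers by which a mutant array could be paired with a WT array. A fit with a term for slm9D against hip1D over the conditions called 1762 probe sets, and 1367 for the difference between conditions.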

Other observations

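DNA repair genes named rad or rhp were more often higher than lower in the mutants after 40 °C then H2O2, at 13 (43.3%, beside 29.5% of all probe sets) and 4 (13.3%, beside 29.6%) of 30, with a median difference of 0.15. With WT arrays in the spread 6 were higher and 2 lower, and in the quantile normalization restricted to S. pombe 10 and 7. rhp41 and rhp42, homologs of the nucleotide excision repair factor XPC, were 1.42 ± 0.12 and 1.30 ± 0.09 higher (SE), though neither passed with WT arrays in the spread (adjusted p = 0.0757 and 0.33). rad16, the excision repair nuclease gene, was 1.02 ± 0.08 higher and passed in both limma fits, as did rad55, a recombination mediator gene (0.94 ± 0.09). The checkpoint clamp gene rad1 was lower (-0.54 ± 0.08).

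Of 19 cell wall synthesis genes 9 were higher (47.4%, beside 29.5% of all probe sets) and 3 lower (15.8%, beside 29.6%), or 3 and 0 with WT arrays in the spread of the limma fit, where 1 had an unadjusted p under 0.05 as lower. The alpha-glucan synthase homolog mok11 was 1.82 ± 0.08 higher, mok12 0.97 ± 0.08 higher and mok13 0.84 ± 0.09 higher, while ags1, the essential alpha-glucan synthase gene, was lower (-0.18 ± 0.07). The chitin synthase homologs chs1 and chs2 were 1.77 ± 0.10 and 1.23 ± 0.09 higher.

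Genes of central metabolism and protein turnover went both ways. Of 12 glycolysis genes 2 were higher (16.7%, beside 29.5% of all probe sets) and 5 lower (41.7%, beside 29.6%), or 1 and 2 with WT arrays in the spread. Among the 5 were the hexokinase gene hxk1 (-0.39 ± 0.07) and pyk1, the pyruvate kinase gene (-0.29 ± 0.04). Against the same shares of all, glycerol and trehalose genes had 2 higher (20%) and 3 lower (30%) of 10, or 1 and 0 with WT arrays in the spread. Proteasome and ubiquitin genes had 4 higher (16%) and 6 lower (24%) of 25, or 1 and 2 in that fit. The proteasome subunit gene rpn1302 was lowest (-0.83 ± 0.08). Zinc genes had 3 higher (50%) and 1 lower (16.7%) of 6, and 0 in limma with WT arrays in the spread, where 1 each way had an unadjusted p under 0.05. The phosphate list had 1 gene on the array, vtc4, which did not differ detectably (0.04).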
